A study of Macaca mulatta with 5 samples.

Results

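The 9 genes described here encode subunits of voltage-gated potassium channels of the A-type, silent and Kv2 groups: KCND2, KCND3, KCNIP1, KCNIP2, KCNIP3, KCNIP4, KCNAB1, KCNV1 and KCNB2. They were chosen by symbol, with earlier results of these data known. Counts of called members set beside the share of all genes are therefore a description only and no test of the group. All 9 were found among the 21761 gene identifiers of the files, in each of the 5 libraries. RNA was counted in single nuclei of claustrum tissue, a narrow layer of neurons beneath the insula, taken from 2 healthy, untreated male rhesus macaques. There were 3 libraries of the 18-month animal and 2 of the 17-month animal, so libraries of 1 animal are repeats on that animal, and age and animal cannot be told apart. In comparisons of cell types and in those of the 2 animals, p-values rest on how libraries vary, not on how animals vary. The nuclei come from a dissected block with no sort or gate named in the labels, and the block also held nuclei with markers of striatum, cortical layers and glia.

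A-type potassium currents switch on during small depolarisations and inactivate quickly, which delays firing and limits how far spikes travel back into dendrites. In neurons they are carried largely by channels of the Kv4 family, whose pore-forming subunits are encoded by KCND2 and KCND3. KCNIP1 to KCNIP4 encode calcium-binding KChIP proteins that attach to Kv4 subunits and set their surface level and inactivation. KCNAB1 encodes a cytoplasmic beta subunit that gives some Kv1 channels fast inactivation. KCNV1 encodes a silent subunit that forms no channel of its own but joins Kv2 subunits and changes their gating. KCNB2 encodes a Kv2 pore subunit, which carries delayed-rectifier current.

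The files held 40005 nucleus barcodes and 63073988, 70896967 and 57299421 unique molecular identifiers (UMIs) for the 18-month animal and 50993715 and 47512670 for the 17-month animal. Filtering kept 37091 nuclei. A barcode sequence was shared by 2 libraries in 197 cases. Levels are in CPM, the UMIs of a gene per 1000000 summed UMIs of a type in 1 library, given as mean ± SD over 5 libraries unless stated. A fold change is called when its adjusted p is under 0.05 and its absolute log2 value is at least 1. Adjusted p-values come from edgeR's quasi-likelihood test with the library as a block and Benjamini-Hochberg adjustment over all genes tested. The members took no part in clustering or naming. Where a type is compared with several others, the fold change is taken against the mean of their log values, which can differ in sign from the difference of mean CPM.

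Names of types rest on marker genes. The claustrum-like class held 5165 nuclei in clusters E1, E2, E3, E8 and E11, with NR4A2, GNB4, SYNPR, NTNG2 and OPRK1 on in each. Against broad clusters not named excitatory, NTNG2 was among the 10 leading genes of these clusters. Against other excitatory nuclei, the layer 2/3 marker CUX2 was among the 10 leading genes of E1, E2, E3 and E11. In E1 and E2 no claustrum marker was among them. The claustrum-like class was therefore also compared without E2, in which layer 2/3 markers scored as high as claustrum markers. The other named excitatory types were layer 6 corticothalamic (L6 CT)-like with 603 nuclei, layer 4/5 intratelencephalic (L4/5 IT)-like with 204 and layer 6b (L6b)-like with 175. L6b-like nuclei are cluster E9, with 3 of 5 L6b markers on. Its 10 leading genes held none of these markers and held SEMA3E and TLE4, markers of the L6 CT class, so the comparison was repeated without it. The L4/5 IT-like type reached 20 nuclei in 3 libraries. Inhibitory types were VIP-like (748 nuclei), LAMP5/NDNF-like (285), CCK-like (212), PVALB-like (562) and SST-like (323). Of PVALB-like nuclei, 436 are in cluster I1, where PVALB itself was not on and the 10 leading genes held the SST marker GRIK3 and no PVALB-class marker. The others are in cluster I8, where PVALB was on. Of SST-like nuclei, 103 are in cluster I10, where SST was on but no SST-class marker was among the 10 leading genes. Comparisons of inhibitory types were therefore repeated without I1 or I10. VIP itself was not on in cluster I6, with 192 of the VIP-like nuclei. CCK itself was not on in cluster I12, with 52 of the CCK-like nuclei, where RELN and NPSR1, markers of other classes, were among the 10 leading genes. The comparisons were not repeated without I6 or I12. Striatal projection neuron-like nuclei numbered 1914, among them 781 in EBF1 clusters with direct-pathway markers and 897 in DRD2 clusters. The EBF1 clusters also had CNR1, ERBB4, FOXP2 or RELN, markers of other classes, among their leading genes, so both sets keep these descriptive names. Glia-like nuclei were 15010 oligodendrocyte-like, 2083 oligodendrocyte precursor (OPC)-like, 1216 astrocyte-like and 2866 microglia-like.

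**Figure D1:**
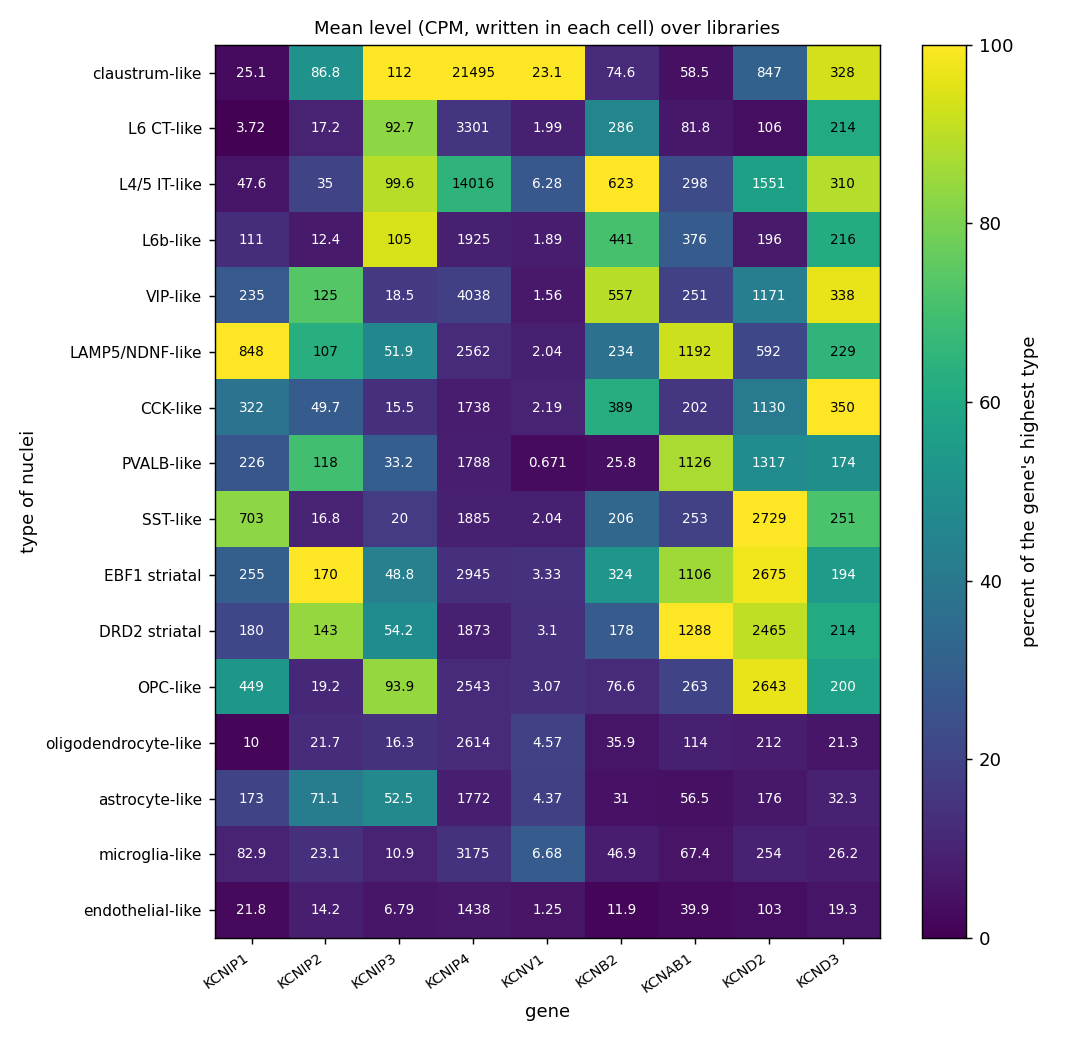
Mean level of each gene (columns) in each type of nuclei (rows), in CPM over the libraries with at least 20 nuclei of that type; colour gives the level as a percent of the gene's own highest type, so colours compare types within a gene and not genes with each other. Of the types shown, KCNIP3, KCNIP4 and KCNV1 peak in claustrum-like nuclei, KCND2 in SST-like nuclei and KCNIP1 in LAMP5/NDNF-like nuclei.

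Each gene had its own order of the 16 types, endothelial-like nuclei included, and most neighbours in that order were not separated by their libraries. For KCNV1, claustrum-like nuclei stood alone at the top at 20.3 to 24.04 CPM, and the next type, microglia-like, ranged over 4.85 to 9.28 CPM. All 14 later pairs of neighbouring types overlapped. KCNIP4 was also highest in claustrum-like nuclei at 20309.8 to 22765 CPM, above L4/5 IT-like nuclei at 12352 to 15202 CPM without overlap. L4/5 IT-like nuclei stood in turn above VIP-like nuclei at 3281 to 5358 CPM, and the other 13 pairs overlapped. KCND2 had SST-like, EBF1 striatal, OPC-like and DRD2 striatal nuclei together at the top, with overlapping libraries between 2729 and 2465 CPM on average. KCNAB1 likewise had DRD2 striatal, LAMP5/NDNF-like, PVALB-like and EBF1 striatal nuclei together at 1288 to 1106 CPM. The fifth, L6b-like, averaged 376 CPM, and this was the one gap in the order of KCNAB1. KCNIP1 was more graded, with 10 of 15 neighbouring pairs overlapping, and its 4 highest types were LAMP5/NDNF-like, SST-like, OPC-like and CCK-like. KCNIP2 was highest in EBF1 striatal nuclei (167 to 173 CPM), above DRD2 striatal nuclei (139 to 149 CPM). KCND3 had 14 of 15 pairs overlapping, with 349.8 CPM in CCK-like nuclei at the top. Its one gap lay between PVALB-like nuclei at 174 CPM and astrocyte-like nuclei at 32.3 CPM. KCNB2 had L4/5 IT-like (623 CPM) and VIP-like (557 CPM) nuclei first, and KCNIP3 had claustrum-like, L6b-like, L4/5 IT-like, OPC-like and L6 CT-like nuclei together between 112 and 92.7 CPM. Unnamed excitatory nuclei, which are not among the 16 types, had a higher KCNIP3 mean of 123 CPM.

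Claustrum-like nuclei were set against the other named excitatory nuclei of the same libraries. In them KCNV1, KCNIP4, KCNIP2 and KCND2 were higher and KCNB2 and KCNAB1 lower, while KCND3, KCNIP3 and KCNIP1 were not called. All 9 members passed the filter on low counts and 6 were called, against 12.1% of the 6738 genes tested. The silent subunit gene KCNV1 had 24.04, 23.1 and 23.96 CPM in claustrum-like nuclei of the 18-month animal and 23.98 and 20.3 CPM in those of the 17-month animal. In the other named excitatory nuclei it had 0.0, 5.17 and 2.05 CPM in the 18-month animal and 3.47 and 1.7 CPM in the 17-month animal. The groups did not overlap, and the class sums held 2079 UMIs of KCNV1 in claustrum-like nuclei and 39 in the others (log2 fold change 3.04, SE 0.35, adjusted p = 0.00035).

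Of the KChIP genes, KCNIP4 had 20309.8, 21664 and 21830.3 CPM in the 18-month animal and 20906 and 22765 CPM in the 17-month animal in claustrum-like nuclei. The other named excitatory nuclei had 3032, 5942 and 2831 CPM in the 18-month animal and 5007 and 6506 CPM in the 17-month animal. Every claustrum-like library lay above every other library (log2 fold change 2.26, SE 0.22, adjusted p = 0.000697). For KCNIP4 too the other group joined unlike types, all below the claustrum-like range. L4/5 IT-like nuclei averaged 14016 CPM, L6 CT-like nuclei 3301 CPM and L6b-like nuclei 1925 CPM. How far this makeup set the size of the fold was not tested, nor was the fold against L4/5 IT-like nuclei alone. In RefSeq the span of the protein-coding gene PACRGL overlaps that of KCNIP4. PACRGL itself averaged 60.3 ± 6.69 CPM in claustrum-like and 55.8 ± 3.996 CPM in the other named excitatory nuclei. KCNIP2, also known for its part in heart A-type current, had 74.6, 79.8 and 67.8 CPM in the 18-month animal and 112 and 100.5 CPM in the 17-month animal in claustrum-like nuclei and 14.2, 17.3 and 14.8 CPM in the 18-month animal and 23.2 and 25.4 CPM in the 17-month animal in the others. The groups did not overlap, and KCNIP2 had the smallest adjusted p of the 9 members in this comparison (log2 fold change 2.16, SE 0.09, adjusted p = 3.39e-09). KCNIP3, whose product is also known as the calcium-dependent repressor DREAM, averaged 112 ± 17.5 CPM in claustrum-like nuclei and 96.6 ± 11.8 CPM in the other named excitatory nuclei (log2 fold change 0.18, SE 0.10, adjusted p = 0.196). KCNIP1 averaged 25.1 ± 5.34 CPM in claustrum-like nuclei and 30.9 ± 11.1 CPM in the other named excitatory nuclei, with overlapping libraries (log2 fold change -0.35, SE 0.22, adjusted p = 0.276). That second mean joins unlike types, with 3.72 CPM in L6 CT-like, 47.6 CPM in L4/5 IT-like and 111 CPM in L6b-like nuclei. Without L6b-like nuclei the log2 fold change of KCNIP1 was 0.98 (adjusted p = 0.0245), just under the fold threshold. Without cluster E2 it was -0.68 (adjusted p = 0.13).

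Among pore subunits, KCND2 had 861, 874 and 863 CPM in the 18-month animal and 794 and 843 CPM in the 17-month animal in claustrum-like nuclei, a narrow range. The other named excitatory nuclei spread widely, at 256, 518 and 143 CPM in the 18-month animal and 387 and 449 CPM in the 17-month animal (log2 fold change 1.36, SE 0.33, adjusted p = 0.0348). The types behind that second group differed: L4/5 IT-like nuclei averaged 1551 ± 202 CPM (n = 3), above the claustrum-like mean, while L6 CT-like nuclei averaged 106 ± 29.6 CPM and L6b-like nuclei 196 ± 30.1 CPM. The 18-month libraries 1 and 3, which had under 20 L4/5 IT-like nuclei, had the lowest KCND2 of the other named excitatory nuclei, and the part of this makeup in the difference was not tested. The call for KCND2 was lost with 18-month library 1, 17-month library 1 or 17-month library 2 left out (adjusted p = 0.0864, 0.0727 and 0.0688), without a filter on low counts (adjusted p = 0.0512) and against all other excitatory nuclei, where the log2 fold change was 0.73. KCND3 averaged 328 ± 18.7 CPM in claustrum-like nuclei and 233 ± 34.5 CPM in the other named excitatory nuclei, without overlap and under the fold threshold (log2 fold change 0.48, SE 0.08, adjusted p = 0.000555).

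KCNB2, the Kv2 pore gene, had 73.7, 60.5 and 27.2 CPM in the 18-month animal and 98.4 and 113 CPM in the 17-month animal in claustrum-like nuclei. It had 308, 416 and 432 CPM in the 18-month animal and 318 and 399 CPM in the 17-month animal in the other named excitatory nuclei (log2 fold change -2.47, SE 0.42, adjusted p = 0.0113). All claustrum-like libraries were lower, and 18-month library 3 was the lowest of them. L4/5 IT-like, L6b-like and L6 CT-like nuclei were all higher in KCNB2, at 623 ± 84.2 CPM (n = 3), 441 ± 51.7 CPM and 286 ± 85.05 CPM. KCNAB1, the beta subunit gene, had 61.6, 62.3 and 51.98 CPM in the 18-month animal and 54.8 and 62.04 CPM in the 17-month animal in claustrum-like nuclei and 155, 233 and 209 CPM in the 18-month animal and 126 and 122 CPM in the 17-month animal in the others (log2 fold change -1.52, SE 0.17, adjusted p = 0.000546). A level above that of claustrum-like nuclei was not found in every layer type: L6 CT-like nuclei had 26.9 to 145 CPM, which overlaps the claustrum-like range, whereas L6b-like nuclei had 251 to 525 CPM.

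**Figure D2:**
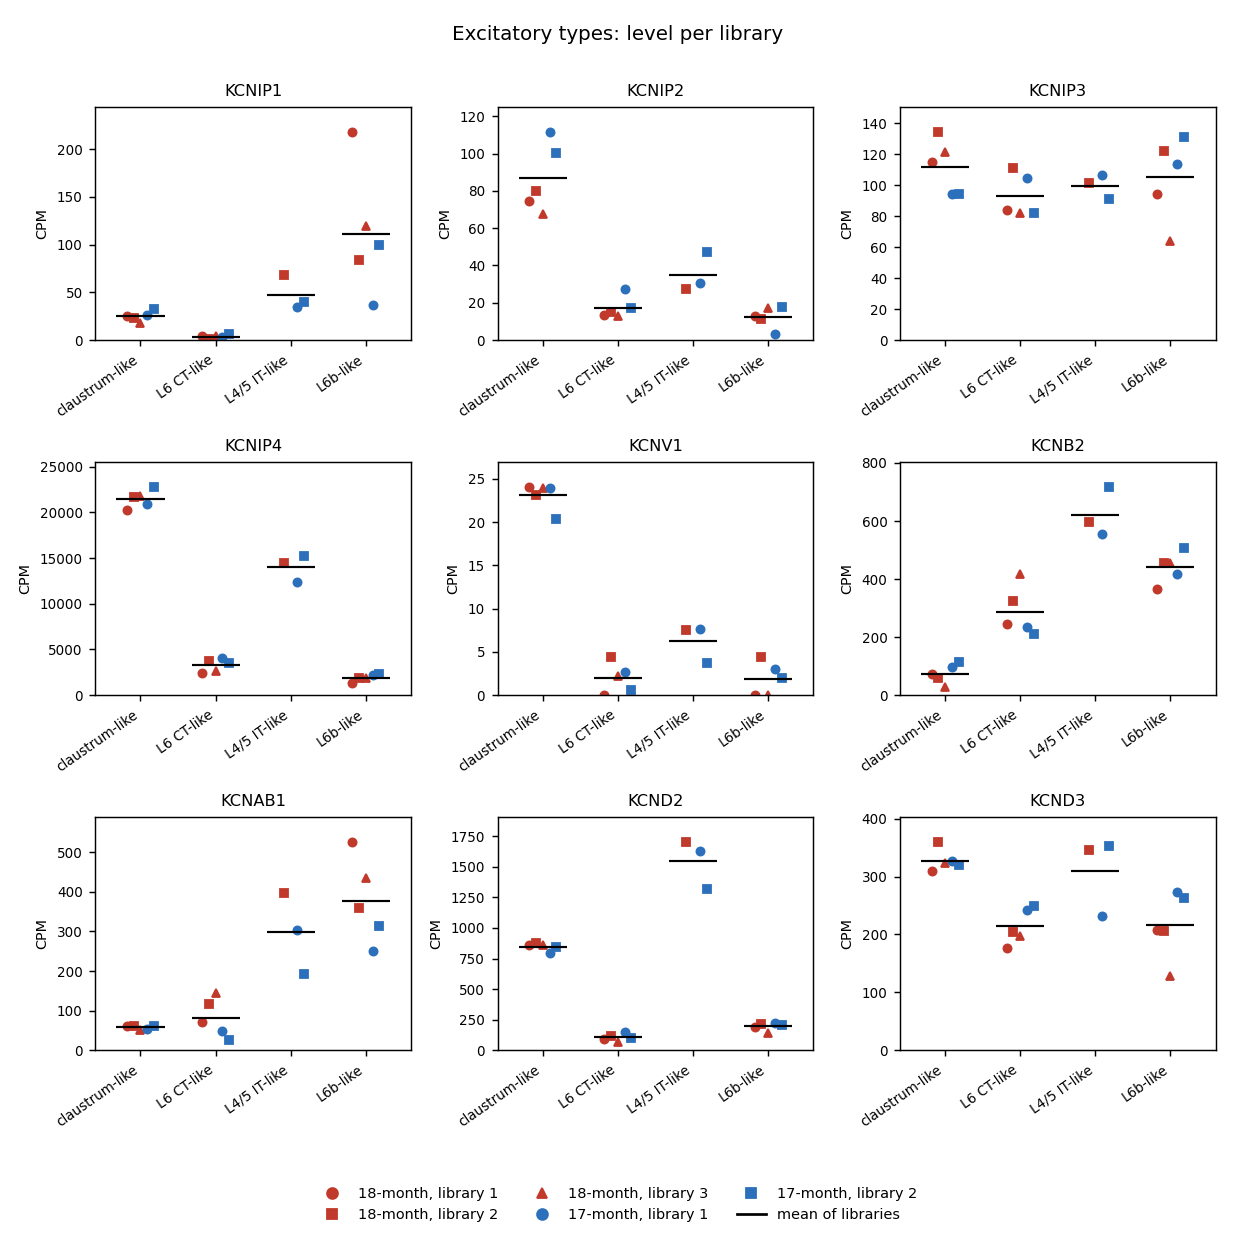
Level of each gene per library (points, CPM on a linear axis from 0; colour gives the animal, shape the library number) in claustrum-like, L6 CT-like, L4/5 IT-like and L6b-like nuclei; black lines are means over libraries. KCNV1 and KCNIP4 are highest in claustrum-like nuclei in every library, KCNB2 is lowest there, and KCND2 is highest in L4/5 IT-like nuclei.

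The remaining excitatory nuclei, 2330 in unnamed clusters, were left out of that group. Against all other excitatory nuclei, unnamed ones included, the log2 fold changes were 1.72 for KCNV1, 1.47 for KCNIP4, 1.23 for KCNIP2, -1.65 for KCNAB1 and -2.54 for KCNB2, all still called. KCNV1 averaged 8.39 CPM in the unnamed nuclei, between the claustrum-like and the other named nuclei. Leaving out cluster E2 kept all 6 calls, with KCNAB1 at a log2 fold change of -1.15. Leaving out L6b-like nuclei kept 4 of the 6, and the calls for KCND2 (log2 1.24, adjusted p = 0.0634) and KCNAB1 (log2 -0.99, adjusted p = 0.0374) were lost. Both comparisons were added after the data had been seen. Among the other voltage-gated potassium channel and auxiliary genes listed, 42 in the files, 30 passed the filter, of which 6 were higher and 6 lower. Higher were KCNG3, a silent subunit gene (log2 1.85, adjusted p = 0.00021), and the Kv3 genes KCNC1 (log2 1.77, adjusted p = 2.59e-08) and KCNC2 (log2 1.31, adjusted p = 2.79e-06). Lower were DPP10, which encodes an auxiliary subunit of Kv4 channels (log2 -1.91, adjusted p = 2.62e-09), the ERG-type gene KCNH7 (log2 -1.63, adjusted p = 0.00235) and the silent subunit gene KCNG2 (log2 -1.54, adjusted p = 2.86e-06). DPP6, the other Kv4 auxiliary subunit gene, averaged 472 CPM in claustrum-like nuclei and 457 CPM in the other named excitatory nuclei. The median log2 fold change was 0.48 over the 9 members, 0.10 over these 30 genes and -0.01 over all genes tested.

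Within the claustrum-like class, each cluster was compared with the mean of the other 4. Members differed little at the fold threshold: KCNAB1 was lower in E2 and KCNIP3 lower in E11, and no other member was called. In E1, E3 and E8, where edgeR called 0 members, 7, 4 and 7 had an unadjusted p under 0.05, and the DESeq2 Wald test called 0, 1 and 0. The share of genes called was 2.53% in E1, 3.58% in E2, 2.01% in E3, 1.53% in E8 and 0.849% in E11, of 6478 genes tested, and all 9 members were tested in each. These shares are at the fold threshold, and the share of all genes with an unadjusted p under 0.05 is not given here. KCNAB1 averaged 109 ± 41.7 CPM in E11 and 62.3 ± 12.1 CPM in the other 4 clusters and was called without 18-month library 1 and by the DESeq2 Wald test, but not here (log2 fold change 1.03, SE 0.31, adjusted p = 0.0872). In cluster E2 KCNAB1 had 22.9, 21.1 and 13.05 CPM in the 18-month animal and 22.6 and 24.1 CPM in the 17-month animal. The mean of the other clusters was higher in every library, and the values did not overlap (20.8 ± 4.44 CPM in E2 and 82.7 ± 9.29 CPM in the other 4 clusters, log2 fold change -2.01, SE 0.14, adjusted p = 6.91e-11). The other 4 clusters averaged 87.9 CPM in E1, 49.4 CPM in E3, 91.03 CPM in E8 and 109 CPM in E11. KCNV1 was in the same direction, at 14.96 ± 1.89 CPM in E2 and 26.4 ± 3.23 CPM in the other 4 clusters, under the fold threshold (log2 fold change -0.82, SE 0.17, adjusted p = 0.000424). E11 is a cluster of 113 nuclei summed in 3 libraries, with a median of 4748 UMIs per nucleus, against medians of 14364 to 19839.5 in the other 4 clusters, and the part of this depth in its differences was not tested. KCNIP3 averaged 65.97 ± 14.4 CPM in E11 and 116 ± 18.7 CPM in the other 4 clusters (log2 fold change -1.07, SE 0.21, adjusted p = 0.00228). That call was lost without 18-month library 2 (log2 -0.85, adjusted p = 0.225), with no library block (log2 -0.92, adjusted p = 0.181), with DESeq2 size factors (log2 -0.97) and with the DESeq2 Wald test (log2 -0.97). In cluster E1, 7 members were higher with an adjusted p under 0.05 but under the fold threshold, among them KCNAB1 (log2 0.69, adjusted p = 1.64e-05), KCND2 (log2 0.54, adjusted p = 0.00177), KCNIP2 (log2 0.52, adjusted p = 0.000144) and KCNV1 (log2 0.46, adjusted p = 0.00952). The share of all genes with an adjusted p under 0.05 in E1 is not given here either. KCNB2 came to 135 ± 51.9 CPM in E8 and 74.2 ± 32.1 CPM in the other 4 clusters (log2 fold change 0.98, SE 0.21, adjusted p = 0.00775), and it was called with either 17-month library left out. Of the other listed genes, E2 had 4 higher and 2 lower of 30, among them the silent subunit gene KCNS3 (log2 2.84, adjusted p = 1.94e-11), KCNH7 (log2 1.49, adjusted p = 0.000246) and KCNG2 (log2 1.13, adjusted p = 7.45e-05) higher, and KCNH1, an EAG-type gene (log2 -1.26, adjusted p = 1.87e-17), lower.

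Excitatory nuclei as a whole differed from inhibitory nuclei in 5 of the 9 members, against 17.7% of 7228 genes tested. KCNV1, KCNIP4 and KCNIP3 were higher in excitatory nuclei, and KCNIP1 and KCNAB1 were lower. KCNIP1 had 27.3, 24.1 and 18.8 CPM in the 18-month animal and 22.4 and 34.7 CPM in the 17-month animal in excitatory nuclei and 412, 353 and 375 CPM in the 18-month animal and 381 and 389 CPM in the 17-month animal in inhibitory nuclei (log2 fold change -3.86, SE 0.11, adjusted p = 4.21e-08). KCNAB1 averaged 108 ± 24.6 CPM in excitatory nuclei and 684 ± 34.8 CPM in inhibitory nuclei (log2 fold change -2.62, SE 0.14, adjusted p = 8.74e-06), and KCNIP3 averaged 113 ± 14.2 CPM in excitatory nuclei and 28.9 ± 2.74 CPM in inhibitory nuclei (log2 fold change 2.05, SE 0.07, adjusted p = 1.25e-10). None of the 3 overlapped between the groups, and the share of all genes without overlap is not given here. KCNIP4 averaged 16323 ± 539.7 CPM in excitatory nuclei and 2484 ± 639 CPM in inhibitory nuclei (log2 fold change 2.83, SE 0.16, adjusted p = 1.28e-05) and KCNV1 17.04 ± 1.52 CPM in excitatory nuclei and 1.39 ± 0.494 CPM in inhibitory nuclei (log2 fold change 3.69, SE 0.17, adjusted p = 1.77e-09), the inhibitory sums holding 34 UMIs of KCNV1 in all. The Kv4 pore genes stayed under the fold threshold, KCND2 at 722 ± 15.1 CPM in excitatory nuclei and 1197 ± 65.8 CPM in inhibitory nuclei (log2 fold change -0.65, SE 0.05, adjusted p = 7.73e-08) and KCND3 at 306 ± 12.6 CPM in excitatory nuclei and 247 ± 26.3 CPM in inhibitory nuclei (log2 fold change 0.39, SE 0.06, adjusted p = 9.61e-05). KCNB2 (-0.48) and KCNIP2 (-0.28) were also uncalled on the log2 scale. Claustrum-like nuclei made up most of the excitatory nuclei, so these values lean on that class. Of 32 other listed genes that passed the filter, 6 were higher and 7 lower. Highest were the Elk-type gene KCNH3 (log2 3.39, adjusted p = 1.37e-10), the Kv1 gene KCNA1 (log2 2.13, adjusted p = 3.84e-08) and KCNG3 (log2 1.67, adjusted p = 4.3e-08), and lowest the Elk-type gene KCNH8 (log2 -2.13, adjusted p = 0.00357), KCNS3 (log2 -2.05, adjusted p = 2.91e-06) and KCNC2 (log2 -1.97, adjusted p = 2.08e-11).

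The inhibitory types were told apart by different members. Each type was compared with the mean of the other 4 over 4686 genes tested, of which 6.59% were called for VIP-like, 10.2% for LAMP5/NDNF-like, 6.34% for CCK-like, 9.5% for PVALB-like and 8.96% for SST-like nuclei. KCNV1 did not pass the filter, with 4 to 7 UMIs in each type, which leaves 8 members tested. Of these 8, 4 were called in VIP-like, 4 in LAMP5/NDNF-like, 2 in CCK-like, 3 in PVALB-like and 3 in SST-like nuclei.

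For the Kv4 pore gene KCND2, SST-like nuclei were the highest inhibitory type, with 2740.4, 2643 and 2725 CPM in the 18-month animal and 2691 and 2845 CPM in the 17-month animal, and each of the other 4 types averaged 1317 CPM or less (log2 fold change 1.44, SE 0.07, adjusted p = 8.11e-23). LAMP5/NDNF-like nuclei were the lowest, with 559.7, 719.9 and 639.5 CPM in the 18-month animal and 519 and 525 CPM in the 17-month animal (log2 fold change -1.28, SE 0.09, adjusted p = 2.01e-17). PVALB-like nuclei averaged 1317 ± 204 CPM, VIP-like 1171 ± 45.7 CPM and CCK-like 1129.9 ± 146 CPM, and their libraries overlapped. The PVALB-like mean joins 1537 ± 217 CPM in cluster I1 and 262 ± 65.97 CPM in I8 (n = 4), so I8 lay below LAMP5/NDNF-like nuclei. Without I1, KCND2 was called lower in PVALB-like nuclei (log2 -2.21, adjusted p = 8.56e-21) and was under the fold threshold in LAMP5/NDNF-like nuclei (log2 -0.71). In SST-like nuclei both clusters were high, at 2599 ± 81.3 CPM in I10 (n = 3) and 2546 ± 349 CPM in I5. KCND3 was uncalled in all 5 types, from 349.8 ± 58.7 CPM in CCK-like nuclei and 338 ± 28.6 CPM in VIP-like nuclei down to 174 ± 27.5 CPM in PVALB-like nuclei, where its log2 fold change was -0.77 (adjusted p = 3.18e-12).

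KCNIP1 was highest in LAMP5/NDNF-like nuclei, with 895, 777 and 896 CPM in the 18-month animal and 781 and 889 CPM in the 17-month animal (log2 fold change 1.39, SE 0.06, adjusted p = 1.69e-23). SST-like nuclei came next, at 724, 723 and 664 CPM in the 18-month animal and 685 and 718 CPM in the 17-month animal (log2 fold change 1.03, SE 0.06, adjusted p = 1.5e-18), and the 2 types did not overlap. Lower than the mean of the others were PVALB-like nuclei, at 226 ± 21.7 CPM (log2 fold change -1.07, SE 0.07, adjusted p = 2.52e-17). Cluster I8 averaged 380.4 ± 116 CPM and I1 184 ± 27.3 CPM, and the PVALB-like call was lost without I1 (log2 -0.29, adjusted p = 0.0568). VIP-like nuclei averaged 235 ± 23.1 CPM, just inside the fold threshold (log2 fold change -0.98, SE 0.07, adjusted p = 1.11e-15), and were called without 18-month library 1, 17-month library 2, I1 or I10. The SST-like call rests on a fold close to the threshold and fell to log2 0.98 without 18-month library 2, 0.84 without I1 and 0.97 without VIP-like cluster I7. KCNIP2, unlike KCNIP1, was lowest of the 5 types in SST-like nuclei, with 13.9, 29.8 and 15.7 CPM in the 18-month animal and 13.5 and 11.05 CPM in the 17-month animal, where 18-month library 2 stood above the rest. VIP-like nuclei had 139.7, 129 and 104 CPM in the 18-month animal and 136 and 116 CPM in the 17-month animal, and no SST-like library came near this range. The log2 fold change of KCNIP2 was -2.39 (SE 0.17, adjusted p = 9.97e-17) in SST-like nuclei and 1.11 (SE 0.10, adjusted p = 1.54e-12) in VIP-like nuclei. PVALB-like nuclei reached 118 ± 12.5 CPM, just under the fold threshold (log2 0.95, adjusted p = 6.76e-11), and were called without 18-month library 2 and with no filter on low counts. The PVALB-like level followed that of I1, at 135 ± 19.6 CPM, whereas I8 had 40.3 ± 12.7 CPM.

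KCNIP3 was called in LAMP5/NDNF-like nuclei only, with 51.9 ± 7.19 CPM there and 15.5 to 33.2 CPM on average in the other types (log2 fold change 1.38, SE 0.18, adjusted p = 2.16e-08). Without 18-month library 3 it was also called in CCK-like nuclei, as lower. The PVALB-like mean joins unlike clusters, with 76.2 ± 18.6 CPM in I8 (n = 4) and 22.4 ± 3.68 CPM in I1. Without I1, KCNIP3 was called higher in PVALB-like nuclei (log2 1.64, adjusted p = 2.46e-07) and lower in CCK-like nuclei (log2 -1.17), and stayed called in LAMP5/NDNF-like nuclei (log2 1.07). KCNIP4 was called in VIP-like nuclei, with 3281, 3955 and 3759 CPM in the 18-month animal and 5358 and 3835 CPM in the 17-month animal (log2 fold change 1.03, SE 0.09, adjusted p = 6.98e-12). That fold fell to log2 0.99 without 18-month library 3. The clusters of the class differed: KCNIP4 averaged 8830.4 ± 1487 CPM in cluster I7, which holds 161 of the 748 VIP-like nuclei, 3573 ± 846 CPM in I6 and 2264 ± 637 CPM in I2, the largest of the 3. LAMP5/NDNF-like nuclei averaged 2562 ± 395 CPM. The call was lost without I7 (log2 0.46, adjusted p = 0.000349) and without PVALB-like cluster I1 (log2 0.78). Among SST-like nuclei KCNIP4 averaged 4531 ± 610.2 CPM in I10 and 997 ± 438 CPM in I5. Markers of excitatory nuclei were found at low levels in inhibitory nuclei, without a common order of libraries. NTNG2 had 12.2, 16.1 and 10.3 CPM in the 18-month and 22.04 and 23.1 CPM in the 17-month libraries, beside 1859, 2938 and 1952 CPM in the 18-month and 3338 and 2333 CPM in the 17-month libraries for KCNIP4. For both genes the highest 18-month library was library 2, but NTNG2 was higher in 17-month library 2 and KCNIP4 in 17-month library 1. SLC17A7 was highest in 18-month library 1, at 19.01 CPM, where KCNIP4 was lowest. SLC17A7, TBR1 and BDNF averaged lower in the 18-month libraries, at 13.1, 6.63 and 10.1 CPM, against 16.1, 10.5 and 13.6 CPM in the 17-month libraries. The part of free RNA from other nuclei in the KCNIP4 level of inhibitory nuclei was not tested.

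KCNAB1 divided the types sharply. PVALB-like nuclei had 1137, 1114 and 1102 CPM in the 18-month animal and 1107 and 1169 CPM in the 17-month animal and LAMP5/NDNF-like nuclei 1277, 1163 and 1296 CPM in the 18-month animal and 955 and 1269 CPM in the 17-month animal. SST-like, VIP-like and CCK-like nuclei averaged 253 ± 30.1 CPM, 251 ± 23.9 CPM and 202 ± 60.04 CPM, and none of their libraries reached those of the 2 high types. The log2 fold change was 1.64 (SE 0.08, adjusted p = 9.8e-21) in PVALB-like and 1.81 (SE 0.08, adjusted p = 1.24e-21) in LAMP5/NDNF-like nuclei. It was -1.40 (adjusted p = 8.14e-14) in CCK-like and -1.05 (adjusted p = 4.81e-12) in VIP-like nuclei, both called. In SST-like nuclei it was -0.997 and sat on the threshold without a call (adjusted p = 5.04e-11), and it was called without 18-month library 1 or 2, I1 or I10. Both PVALB-like clusters were high, with 1599 ± 40.0 CPM in I8 and 1029 ± 20.6 CPM in I1.

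KCNB2 separated PVALB-like nuclei from the rest. It had 25.4, 43.2 and 11.9 CPM in the 18-month animal and 29.5 and 18.7 CPM in the 17-month animal in PVALB-like nuclei (log2 fold change -3.59, SE 0.24, adjusted p = 7.38e-10), and both clusters were low, at 15.1 ± 9.004 CPM in I8 and 28.6 ± 13.3 CPM in I1. In VIP-like nuclei it had 647, 498 and 539 CPM in the 18-month animal and 436 and 663 CPM in the 17-month animal (log2 fold change 1.87, SE 0.15, adjusted p = 2.21e-08), and in CCK-like nuclei 402, 250.1 and 343 CPM in the 18-month animal and 531 and 417 CPM in the 17-month animal (log2 fold change 1.25, SE 0.18, adjusted p = 3.45e-05). The CCK-like libraries overlapped the mean of the other types, the lowest being 18-month library 2. SST-like and LAMP5/NDNF-like nuclei lay between, at 206 ± 38.6 CPM and 234 ± 53.01 CPM, and were uncalled.

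**Figure D3:**
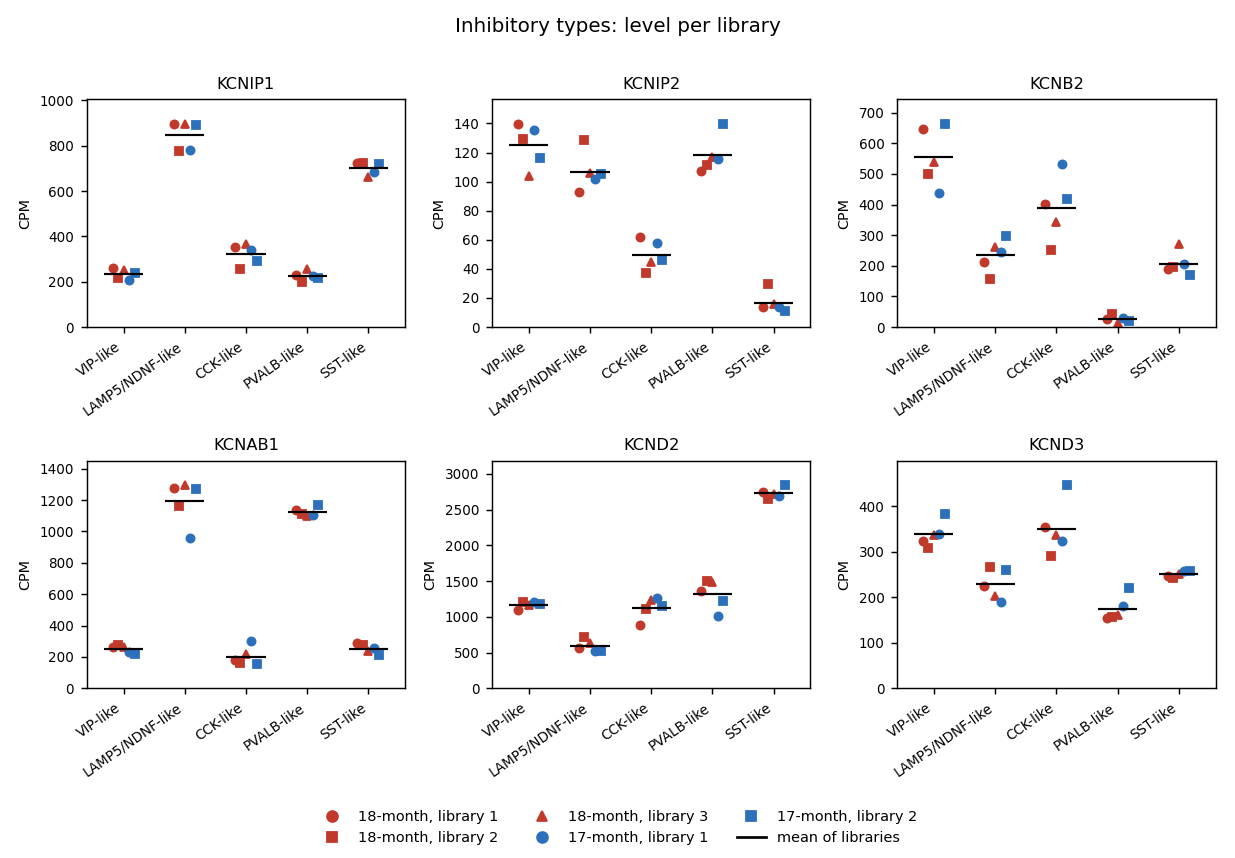
Level of 6 members per library (points, CPM on a linear axis from 0; colour gives the animal, shape the library number) in the 5 inhibitory types; black lines are means over libraries. KCNB2 is lowest in PVALB-like nuclei, KCNAB1 is high in PVALB-like and LAMP5/NDNF-like nuclei, KCND2 is highest in SST-like nuclei and KCNIP2 lowest there.

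Of the other listed genes, 19 passed the filter among inhibitory types. In SST-like nuclei 1 was called higher and 6 lower, with the Kv1 gene KCNA3 higher (log2 1.69, adjusted p = 2.97e-09) and KCNH7 (log2 -2.04, adjusted p = 4.74e-21), KCNG3 (log2 -1.76, adjusted p = 0.00867) and DPP10 (log2 -1.58, adjusted p = 1.7e-06) lowest. PVALB-like nuclei had 5 higher and 4 lower, led by DPP10 (log2 2.69, adjusted p = 1.88e-11), KCNS3 (log2 2.32, adjusted p = 1e-13) and KCNC2 (log2 1.35, adjusted p = 1.12e-22), while KCNG3 (log2 -2.07, adjusted p = 0.00025), KCNH8 (log2 -1.83, adjusted p = 0.00595) and the Kv7 gene KCNQ1 (log2 -1.73, adjusted p = 1.03e-07) were lowest. VIP-like nuclei had 4 higher and 1 lower, with KCNH8 (log2 2.55, adjusted p = 3.5e-07), KCNH7 (log2 1.65, adjusted p = 6.74e-23) and KCNG3 (log2 1.62, adjusted p = 2.33e-05) higher and DPP6 (log2 -1.58, adjusted p = 1.76e-20) lower. LAMP5/NDNF-like nuclei had 3 higher and 3 lower, and CCK-like nuclei 3 higher and 0 lower. DPP6 was called higher in CCK-like nuclei (log2 1.02, adjusted p = 2.86e-16).

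Striatal projection neuron-like nuclei were set against the inhibitory nuclei, and 24.5% of 6278 genes tested were called. Of the 9 members, 5 were called, all higher in striatal nuclei: KCND2, KCNAB1, KCNIP2, KCNIP3 and KCNV1. KCND2 had 2796, 2739.7 and 2848 CPM in the 18-month animal and 2040.3 and 2207 CPM in the 17-month animal in striatal nuclei, and every inhibitory library was lower, at 1123 to 1272 CPM (log2 fold change 1.31, SE 0.08, adjusted p = 7.61e-09). KCNIP2 varied little between libraries in striatal nuclei, with 155, 150.1 and 153 CPM in the 18-month animal and 152 and 158 CPM in the 17-month animal, against 82.7, 84.4 and 74.6 CPM in the 18-month animal and 91.5 and 94.3 CPM in the 17-month animal in inhibitory nuclei (log2 fold change 1.10, SE 0.07, adjusted p = 9.42e-09). KCNAB1 had 1229, 1308 and 1467 CPM in the 18-month animal and 1018 and 918 CPM in the 17-month animal in striatal nuclei and 658 to 741 CPM in inhibitory nuclei (log2 fold change 1.03, SE 0.11, adjusted p = 4.44e-05). Its fold fell under the threshold without 18-month library 2 (log2 0.97) or library 3 (log2 0.92). KCNIP3 averaged 52.1 ± 3.56 CPM in striatal nuclei and 28.9 ± 2.74 CPM in inhibitory nuclei (log2 fold change 1.11, SE 0.08, adjusted p = 3.91e-08). KCNV1 was low in both, 3.2 ± 0.941 CPM in striatal nuclei and 1.39 ± 0.494 CPM in inhibitory nuclei, from 90 UMIs in striatal and 34 UMIs in inhibitory nuclei (log2 fold change 1.57, SE 0.32, adjusted p = 0.00086). KCNIP1 averaged 219.7 ± 92.6 CPM in striatal nuclei and 382 ± 21.5 CPM in inhibitory nuclei without a call (log2 fold change -0.67, SE 0.22, adjusted p = 0.0472). KCND3, KCNB2 and KCNIP4 had log2 fold changes of -0.01, 0.03 and 0.23. Of the other listed genes, 31 passed the filter, 8 were higher and 9 lower. The Elk-type genes KCNH4 (log2 5.50, adjusted p = 4.53e-13) and KCNH3 (log2 2.97, adjusted p = 8.32e-10) and KCNG3 (log2 2.32, adjusted p = 3.08e-10) were highest, and KCNC2 (log2 -5.49, adjusted p = 3.28e-06), DPP10 (log2 -3.49, adjusted p = 6.01e-06) and KCNS3 (log2 -2.62, adjusted p = 5.08e-07) lowest.

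EBF1 striatal clusters and DRD2 striatal clusters differed in none of the 8 members tested at the fold threshold, where 1.13% of 5128 genes were called. Without the fold threshold, 5 members had an adjusted p under 0.05: KCNB2, at 324 ± 34.4 CPM in EBF1 clusters and 178 ± 29.6 CPM in DRD2 clusters (log2 fold change 0.85, SE 0.06, adjusted p = 1.77e-11), KCNIP4 (log2 0.65, adjusted p = 3.74e-05), KCNIP1 (log2 0.44, adjusted p = 1.56e-06), KCNIP2 (log2 0.22, adjusted p = 0.0113) and KCNAB1 (log2 -0.25, adjusted p = 0.000123). KCNAB1 was the one of these 5 with the lower level in EBF1 clusters, in 5 of 5 libraries. KCNV1 did not pass the filter. The DESeq2 Wald test called 0 members, and 7 had an unadjusted p under 0.05. The 1.13% above is at the fold threshold, and the share of all genes at an adjusted or unadjusted p alone is not given here. One other listed gene was called, KCNH7, which was lower in EBF1 clusters (log2 -1.72, adjusted p = 0.000515).

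Among glia, OPC-like nuclei had the highest levels of KCND2 and KCND3. KCND2, KCND3, KCNIP1, KCNIP3, KCNAB1 and KCNB2 were higher in OPC-like nuclei than in the mean of oligodendrocyte-like, astrocyte-like and microglia-like nuclei, 6 of 8 members tested, where 20.2% of 5849 genes were called. KCND2 had 2760.2, 2669 and 2928 CPM in the 18-month animal and 2514 and 2344 CPM in the 17-month animal in OPC-like nuclei, in the range of SST-like and striatal nuclei. Oligodendrocyte-like, astrocyte-like and microglia-like nuclei had 123 to 334 CPM, 121 to 260.3 CPM and 164 to 347 CPM (log2 fold change 3.84, SE 0.12, adjusted p = 5.95e-17). In RefSeq the span of TSPAN12 overlaps that of KCND2, and TSPAN12 averaged 16.9 ± 4.42 CPM in OPC-like nuclei. KCNIP1 had 513, 444 and 469 CPM in the 18-month animal and 404 and 416 CPM in the 17-month animal in OPC-like nuclei (log2 fold change 3.22, SE 0.18, adjusted p = 6.06e-10) and KCND3 had 174, 179 and 201 CPM in the 18-month animal and 227 and 217 CPM in the 17-month animal (log2 fold change 3.12, SE 0.16, adjusted p = 2.06e-11). KCNIP3 averaged 93.9 ± 12.8 CPM (log2 fold change 2.29, SE 0.29, adjusted p = 1.15e-05), KCNAB1 263 ± 9.87 CPM (log2 fold change 1.91, SE 0.10, adjusted p = 6.43e-13) and KCNB2 76.6 ± 10.98 CPM (log2 fold change 1.24, SE 0.15, adjusted p = 8.11e-07). None of these 6 overlapped the mean of the other glia. Without overlap were 7 of the 8 members and 9 of the 17 other listed genes tested, and the share of all genes is not given here. Of 17 other listed genes tested, 8 were higher in OPC-like nuclei and 0 lower, among them DPP6 (log2 4.30, adjusted p = 5.55e-21) and the EAG-type gene KCNH5 (log2 2.95, adjusted p = 1.56e-06).

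In astrocyte-like nuclei KCNIP2, KCNIP1 and KCNIP3 were called higher and KCND2 and KCNAB1 lower, where 22.8% of genes were called. KCNIP2 had 78.0, 90.9 and 70.6 CPM in the 18-month animal and 64.6 and 51.3 CPM in the 17-month animal in astrocyte-like nuclei, above every library of the other glia (log2 fold change 1.70, SE 0.12, adjusted p = 1.07e-11). KCNIP1 had 196, 206 and 210.4 CPM in the 18-month animal and 122 and 128 CPM in the 17-month animal, with the 18-month libraries the higher ones (log2 fold change 1.25, SE 0.21, adjusted p = 0.000125). Its mean over astrocyte-like libraries, 173 ± 43.5 CPM, was below that of the other glia in CPM, 181 ± 9.94 CPM, which includes the high OPC-like level, and 3 of 5 libraries were higher. KCNIP3 averaged 52.5 ± 18.1 CPM in astrocyte-like nuclei and 40.3 ± 7.33 CPM in the other glia, with overlap and higher in 4 of 5 libraries (log2 fold change 1.08, SE 0.37, adjusted p = 0.0228), and its call was lost without 18-month library 2 (adjusted p = 0.144) or library 3 (adjusted p = 0.0872). In oligodendrocyte-like nuclei 4 members were called, all lower, where 24.1% of genes were called. KCNIP1 had the largest fold of them, with 7.8, 8.66 and 7.17 CPM in the 18-month animal and 13.5 and 12.9 CPM in the 17-month animal (log2 fold change -4.16, SE 0.25, adjusted p = 1.17e-09), followed by KCND3 (log2 -1.37, adjusted p = 4.95e-06), KCNIP3 (log2 -1.26, adjusted p = 0.00391) and KCND2 (log2 -1.20, adjusted p = 2e-07). Microglia-like nuclei had 3 lower members, where 29.3% of genes were called: KCNIP3 (log2 -2.11, adjusted p = 0.000848), KCND3 (log2 -1.15, adjusted p = 0.00032) and KCND2 (log2 -1.04, adjusted p = 2.19e-06), the last with a log2 fold change of -0.96 without 18-month library 3. Of the 17 other listed genes, oligodendrocyte-like nuclei had 2 higher and 5 lower, with KCNH8 highest (log2 4.09, adjusted p = 5.31e-18). Microglia-like nuclei had 2 higher and 5 lower, with the Kv7 gene KCNQ3 highest (log2 3.52, adjusted p = 2.07e-09), and astrocyte-like nuclei had 1 higher, DPP10 (log2 2.01, adjusted p = 4.23e-08), and 4 lower.

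RNA of neurons was also counted in glial nuclei. Of the markers of excitatory neurons, NTNG2 stood at 9.09%, 10.05%, 6.22% and 7.19% of its claustrum-like level in oligodendrocyte-like, OPC-like, astrocyte-like and microglia-like nuclei, and BDNF at 15.5%, 13.1%, 12.8% and 14.4%. SLC17A7 stood at 48.6%, 34.3%, 36.6% and 52.8% of its L6 CT-like level in the same 4 types, and TBR1 at 24.1%, 17.04%, 17.06% and 28.4%. SLC17A7 thus had the highest share of these 4 markers in each type and NTNG2 the lowest. KCNIP4 stood at 12.2%, 11.8%, 8.24% and 14.8% of its claustrum-like level in oligodendrocyte-like, OPC-like, astrocyte-like and microglia-like nuclei, and KCNV1 at 19.8%, 13.3%, 18.9% and 28.9%. In each of the 4 types both members lay between the shares of NTNG2 and SLC17A7. Other members also lay between the shares of these markers, as a percent of their own highest neuronal type, which for several was not excitatory. In OPC-like nuclei these were KCNB2 at 12.3% of its highest neuronal type, KCNAB1 at 20.4% and KCNIP2 at 11.3%. In astrocyte-like nuclei they were KCNIP1 at 20.4%, KCND3 at 9.24% and KCND2 at 6.43%, while KCNIP2 at 41.9% and KCNIP3 at 42.8% lay above. In oligodendrocyte-like nuclei they were KCNIP3 at 13.3% and KCNIP2 at 12.8%, and in microglia-like nuclei 6 of the other 7 members, at 7.497% to 13.6%. The part of free RNA in all these levels, called ones included, was not tested. Above the markers in OPC-like nuclei, KCND2 stood at 96.9% of its SST-like level, KCNIP3 at 76.6% of its highest neuronal type, KCNIP1 at 53.0% of its LAMP5/NDNF-like level and KCND3 at 57.1% of its CCK-like level. In oligodendrocyte-like nuclei KCND2, KCNIP1 and KCND3 stood at 7.77%, 1.18% and 6.10%.

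**Figure D4:**
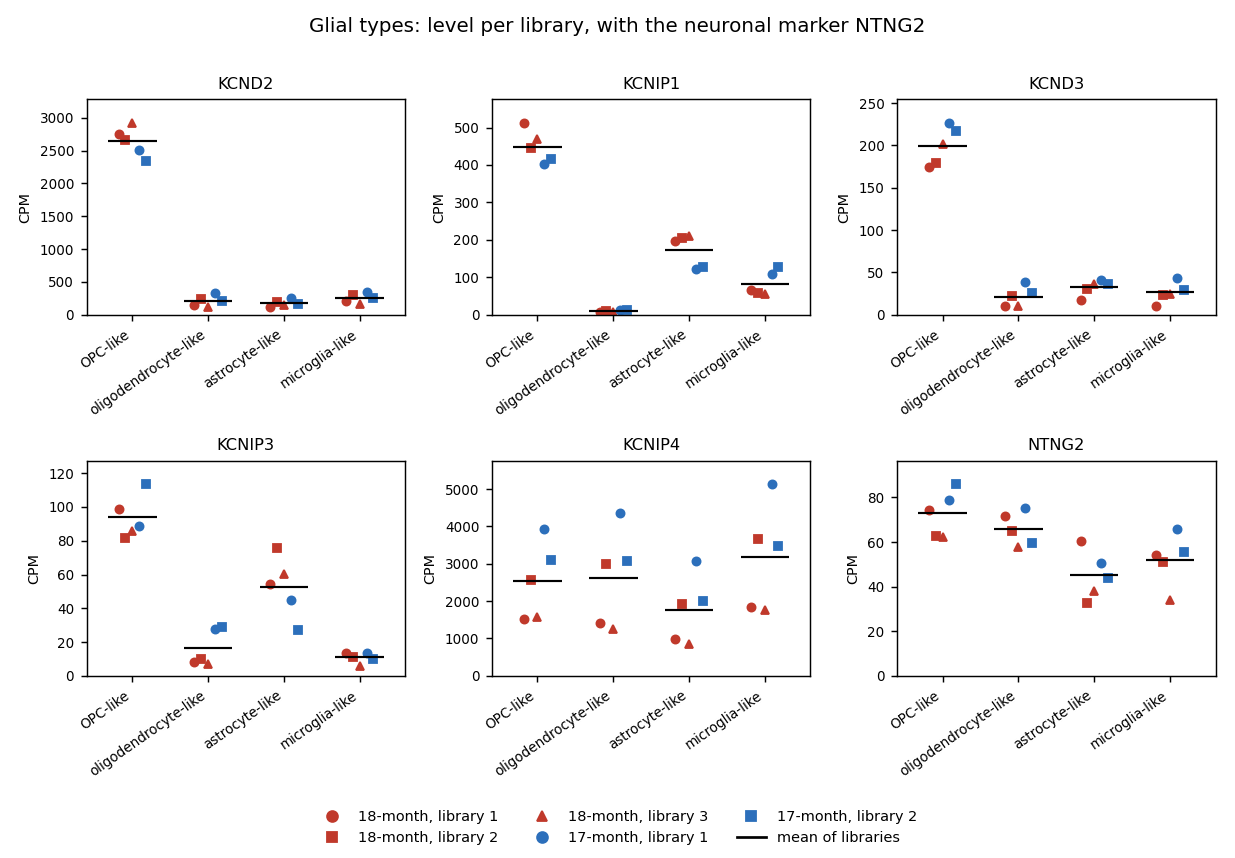
Level of 5 members and of the neuronal marker NTNG2 per library (points, CPM on a linear axis from 0; colour gives the animal, shape the library number) in 4 glial types; black lines are means over libraries. KCND2, KCNIP1 and KCND3 are highest in OPC-like nuclei and KCNIP4 is highest in 17-month library 1 in each of the 4 types. NTNG2 is highest in that library in oligodendrocyte-like and microglia-like nuclei, in 17-month library 2 in OPC-like nuclei and in 18-month library 1 in astrocyte-like nuclei.

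The animals were compared within 5 classes, on 3 against 2 libraries and with an adjusted p under 0.05 as the one criterion. Each group is 1 animal, so these p-values measure the spread between libraries only. In claustrum-like nuclei KCNIP3 was higher and KCNIP2 lower in the 18-month animal, 2 of 9 members, where 12.9% of 7414 genes were called. KCNIP3 had 115, 134 and 121 CPM in the 18-month animal and 94.0 and 94.01 CPM in the 17-month animal (log2 fold change 0.45, SE 0.09, adjusted p = 0.0121). KCNIP2 had 74.6, 79.8 and 67.8 CPM in the 18-month animal and 112 and 100.5 CPM in the 17-month animal (log2 fold change -0.46, SE 0.08, adjusted p = 0.0113). Both calls were lost with either 17-month library left out (adjusted p = 0.142 and 0.113 for KCNIP3 without library 1 and library 2, and 0.141 and 0.0773 for KCNIP2). KCNB2 averaged 53.8 ± 23.99 CPM in the 18-month animal and 106 ± 10.6 CPM in the 17-month animal without overlap but also without a call (log2 fold change -0.92, SE 0.49, adjusted p = 0.338), and was called without 18-month library 3.

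In striatal nuclei KCNAB1 and KCND2 were higher in the 18-month animal, 2 of 9 members, where 12.1% of 6071 genes were called. KCNAB1 had 1229, 1308 and 1467 CPM in the 18-month animal and 1018 and 918 CPM in the 17-month animal (log2 fold change 0.52, SE 0.09, adjusted p = 0.00177). KCND2 had 2796, 2739.7 and 2848 CPM in the 18-month animal and 2040.3 and 2207 CPM in the 17-month animal (log2 fold change 0.45, SE 0.07, adjusted p = 0.000572). KCNIP1 had 194, 117 and 159 CPM in the 18-month animal and 285 and 343 CPM in the 17-month animal, without overlap and without a call (log2 fold change -0.96, SE 0.27, adjusted p = 0.133), and it was called without 18-month library 1 or 2 and by the DESeq2 Wald test. Striatal nuclei were unevenly spread over the libraries, with 123 to 775 per library.

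In oligodendrocyte-like nuclei KCNIP3, KCNB2 and KCNIP1 were lower in the 18-month animal, 3 of 9 members, where 12.9% of 6605 genes were called. KCNIP3 had 8.1, 9.73 and 6.88 CPM in the 18-month animal and 27.8 and 28.8 CPM in the 17-month animal (log2 fold change -1.74, SE 0.16, adjusted p = 0.000117). KCNB2 had 23.5, 29.5 and 15.9 CPM in the 18-month animal and 60.5 and 50.1 CPM in the 17-month animal (log2 fold change -1.22, SE 0.26, adjusted p = 0.0468). KCNIP1 averaged 7.88 ± 0.751 CPM in the 18-month animal and 13.2 ± 0.397 CPM in the 17-month animal (log2 fold change -0.71, SE 0.17, adjusted p = 0.0205). KCNIP4 had 1411, 2984 and 1254 CPM in the 18-month animal and 4356 and 3064 CPM in the 17-month animal, also lower in the 18-month animal without overlap and without a call (log2 fold change -0.95, SE 0.52, adjusted p = 0.344). Markers of excitatory neurons did not all move alike in these nuclei: NTNG2 averaged 64.9 CPM in the 18-month animal and 67.5 CPM in the 17-month animal, BDNF 32.2 CPM in the 18-month animal and 38.6 CPM in the 17-month animal, and SLC17A7 48.6 CPM in the 18-month animal and 46.4 CPM in the 17-month animal. TBR1 averaged 27.1 CPM in the 18-month animal and 30.7 CPM in the 17-month animal. The part of free RNA in the differences of KCNIP3, KCNB2 and KCNIP1 was not tested. KCNIP3 kept its call under all alternatives run, whereas KCNB2 lost it without 18-month library 1 (adjusted p = 0.167), without 17-month library 1 (adjusted p = 0.229) or library 2 (adjusted p = 0.16) and with no filter on low counts (adjusted p = 0.109). KCNIP1 lost it under 5 alternatives, with adjusted p between 0.065 and 0.127. No member was called in inhibitory nuclei, where 6.95% of 6516 genes were called, or in OPC-like nuclei, where 5.06% of 5334 genes were called. At an unadjusted p under 0.05 there were 2 members in inhibitory and 4 in OPC-like nuclei, and the DESeq2 Wald test called none in either. The share of all genes at that unadjusted p is not given here. Of the other listed genes, 3 were higher and 3 lower in claustrum-like nuclei of the 18-month animal, among them KCNH7 (log2 0.60, adjusted p = 0.0321) and KCNH5 (log2 0.55, adjusted p = 0.00503) higher and KCNH4 (log2 -1.40, adjusted p = 0.0211) lower. In OPC-like nuclei KCNH5 averaged 278 CPM in the 18-month animal and 73.7 CPM in the 17-month animal (log2 fold change 1.89, SE 0.11, adjusted p = 4.86e-13).

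**Figure D5:**
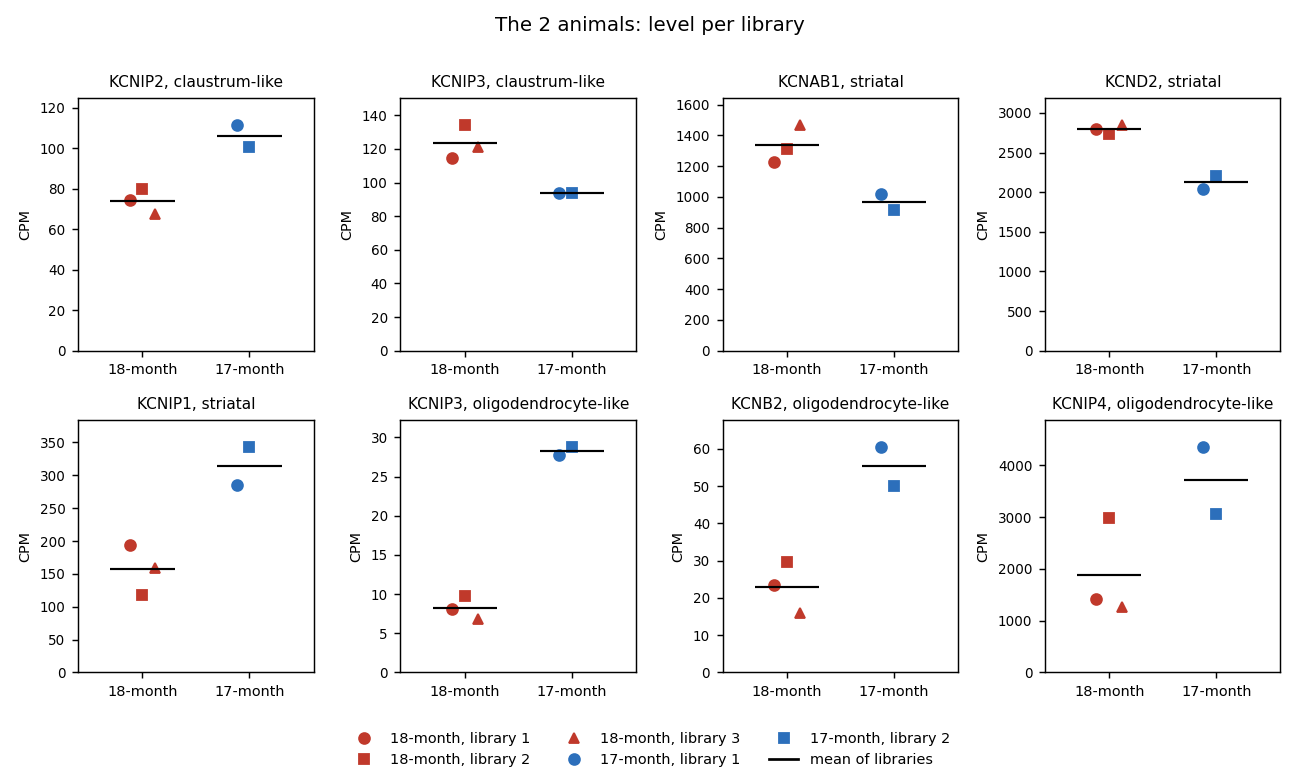
Level per library (points, CPM on a linear axis from 0) in the 18-month animal (left in each panel, 3 libraries) and the 17-month animal (right, 2 libraries) for 8 pairs of member and class; black lines are means. The pairs were chosen for display, and in each of the 8 panels the libraries of the animals do not overlap. KCNIP1 in striatal and KCNIP4 in oligodendrocyte-like nuclei were not called. Of the 9 members, 5 did not overlap between animals in claustrum-like, 4 in striatal and 6 in oligodendrocyte-like nuclei. The share of all genes without overlap is not given here.

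Genes with the most similar pattern over 16 types were ranked by Pearson's r of log2(mean CPM + 1), among 5405 genes not used for clustering or naming. The 16 types share libraries and differ in depth, so r is a description only. KCND3 had the closest matches, REEP1 (r = 0.98), LHFPL4 (r = 0.96) and HECTD4 (r = 0.95). KCND2 was most like PPP4R4 (r = 0.86), ZDHHC2 (r = 0.85) and DPP6 (r = 0.81), the Kv4 auxiliary subunit gene. KCNV1 was most like SLC20A1 (r = 0.88), MCOLN3 (r = 0.86) and IL19 (r = 0.84), and KCNIP4 like OVOL2 (r = 0.83), RTN4R (r = 0.82) and SLC20A1 (r = 0.81). KCNAB1 was most like WIPF3 (r = 0.87) and RASL10B (r = 0.86), and KCNB2 like AP4S1 (r = 0.87), CDH22 (r = 0.86) and ROBO2 (r = 0.84). KCNIP1 was most like ECE2 (r = 0.82), KCNIP2 like POLR3F (r = 0.82) and KCNIP3 like ADGRB1 (r = 0.82). Among the members themselves, the highest r were 0.78 for KCNB2 with KCND3 and 0.77 for KCNIP4 with KCNV1, and the lowest was -0.39 for KCNV1 with KCNAB1.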

How the data were processed

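Single-nucleus RNA was measured with 10x Genomics 3' chemistry in 5 libraries from 2 animals. The raw UMI counts per gene and nucleus were deposited by the authors as matrices, which the file headers attribute to Cell Ranger 5.0.1. The submitters' processing notes list as tools Seurat, Cell Ranger and CASAVA 1.8 and as builds mm10 and Mmul_10, with no role stated. Whether intronic reads or strand were used in counting is not given in the sources used here. Of 21761 gene identifiers, 16522 were named by the files and 645 by a RefSeq table of another assembly, which was used for names and overlapping genes and for no coordinates. RefSeq genes overlapping a member by position were PACRGL for KCNIP4 and TSPAN12 for KCND2 among protein-coding genes.

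Nuclei with fewer than 500 genes (359) or over 5% mitochondrial UMIs were removed, and 2555 likely doublets were removed by a score against simulated doublets at 0.8% per 1000 nuclei. Median UMIs per nucleus were 3338, 3445 and 3485 in the 18-month and 3448 and 2976 in the 17-month libraries. Clustering used a random set of 10857 genes without the members (2000 variable genes, 30 principal components, library correction, Leiden). Clusters were named from marker lists, with score thresholds set after the clusters had been seen. Genes used for clustering or naming were not tested, members and listed potassium channel genes excepted. UMIs were summed per library and type (20 nuclei or more), scaled to CPM for display and tested with edgeR 4.0.16 (quasi-likelihood, TMM, filterByExpr, library as block) in 23 comparisons. Simulated counts with 200 genes changed by a log2 fold of 2 gave 100.0% recovery in the claustrum-like comparison (6720 genes) and 99.5% in that between animals (7406 genes). Of the unchanged genes, 2 and 13 were called. The simulated fold is larger than that of every member called between animals, and recovery at smaller folds was not tested.

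Alternatives were DESeq2 1.42.0 size factors and Wald test, no filter, 1000 genes per nucleus, no library block, each library left out, a replicate block between animals, all other excitatory nuclei, and, added after the data had been seen, claustrum-like nuclei without cluster E2, the other excitatory nuclei without L6b-like ones, and the inhibitory types without I1, I7 or I10. All members are named. Other potassium channel genes are named if among the 3 highest or 3 lowest called, with 1 direction in every library and 10 CPM in the higher group, and DPP6 and, in the comparison of animals, KCNH5 also for their values. Some genes that this rule gives and a marker of excitatory neurons are not reported here. The members and lists were chosen with earlier results of these data known. Intervals cover counting error only.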

Additional observations from a re-analysis of the deposited data

Results flagged for a closer look

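Of 120 sets of 5 libraries examined for 1 library far from the rest, 4 were flagged, and chance flags about 1 in 20. KCNIP2 in L6 CT-like nuclei was highest in 17-month library 1 at 27.3 CPM, with the next at 17.1 CPM. KCNIP2 in SST-like nuclei was highest in 18-month library 2 at 29.8 CPM, with the next at 15.7 CPM. KCNV1 in claustrum-like nuclei was lowest in 17-month library 2 at 20.3 CPM, with the next at 23.1 CPM. KCNAB1 in oligodendrocyte-like nuclei was highest in 17-month library 2 at 160.2 CPM, with the next at 109.4 CPM.

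The difference between striatal and inhibitory nuclei depended on the animal for 2 members, by an interaction term in edgeR adjusted over 6278 genes, of which 159 passed. The term was also fitted for claustrum-like against other named excitatory, excitatory against inhibitory, and EBF1 against DRD2 striatal nuclei. Each fit was adjusted on its own, and no member passed in these. The log2 fold change of KCNAB1 was 0.52 higher in the 18-month than in the 17-month animal (adjusted p = 0.0355), and that of KCNIP1 differed by -0.94 (adjusted p = 0.00784).

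KCNB2 was high in nuclei outside the comparisons: a cluster of 66 nuclei with markers of committed oligodendrocyte precursors held 463 UMIs of KCNB2, which is 1201 CPM (95% Poisson interval 1094 to 1316 CPM), against a mean of 556.5 CPM in VIP-like nuclei. Its libraries had 1438, 1120 and 1386 CPM in the 18-month and 773 and 487 CPM in the 17-month animal. KCND2 averaged 2956 CPM over 4 libraries in an unnamed cluster of 302 nuclei led by FOXP2 and EYA2, against 2729 CPM in SST-like nuclei.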

How the results depend on the processing

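Of 655 alternative values of the 59 called member results, 618 kept the call, 37 lost it and 0 reversed; those lost belong to 14 results and are given beside them above. Of 136 uncalled member results, 24 were called under some alternative. Of 496 alternative counts of genes, 433 stayed within 1.5 times. The cause of the following moves was not tested.

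With the DESeq2 Wald test the genes called were 53 lower in E1 (27 with edgeR), 40 higher and 109 lower in E3 (61 and 69), 71 lower in E8 (46), and 109 higher and 1 lower in E11 (44 and 11). Between animals it called 75 higher and 66 lower in inhibitory (238 and 215), 216 and 194 in striatal (376 and 357), 46 and 41 in OPC-like (131 and 139) and 270 higher in oligodendrocyte-like nuclei (455). DESeq2 size factors gave 5 lower in E11. Without a filter, which tests more genes, 19 were lower in E11, 335 higher in VIP-like (200), 344 in PVALB-like (222), 291 in SST-like (191) and 823 in oligodendrocyte-like nuclei (533), 68 higher and 32 lower in EBF1 striatal clusters (39 and 19), and 586 higher in striatal nuclei of the 18-month animal. Without the library block, 40 were higher in E3, 32 higher in E8 (53), 3 lower in E11 and 23 higher in EBF1 clusters.

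Leaving out 1 library in turn gave 17 to 29 lower in E1, 43 to 71 lower in E3, 35 to 49 higher and 28 to 45 lower in E8, and 15 to 42 higher and 7 to 29 lower in E11. Between animals it gave 58 to 494 higher and 56 to 502 lower in claustrum-like (473 and 480), 65 to 214 and 77 to 208 in inhibitory, 151 to 389 and 131 to 359 in striatal, 229 to 433 and 221 to 650 in oligodendrocyte-like (455 and 400), and 83 to 115 and 78 to 162 in OPC-like nuclei. With 1 library left in the 17-month animal, that library is assumed to vary like the others.

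Libraries of the animals share a replicate number only. Deviations of same-numbered libraries correlated at -0.406 (number 1) and -0.077 (number 2) over 3663 genes. The replicate block gave 242 higher and 228 lower in claustrum-like, 130 and 121 in inhibitory, and 144 and 149 in oligodendrocyte-like nuclei, and KCNIP1 in oligodendrocyte-like nuclei lost its call (log2 -0.64, adjusted p = 0.127).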

Other observations

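Values of large unnamed clusters were as follows. Cluster E4, with 1193 nuclei, averaged 11061 ± 551 CPM of KCNIP4, 10.6 ± 2.23 CPM of KCNV1 and 377 ± 51.5 CPM of KCNB2. Cluster E5, with 799 nuclei, averaged 4275 ± 857 CPM of KCNIP4, 4.17 ± 1.48 CPM of KCNV1 and 427 ± 37.5 CPM of KCNB2. These values were not tested. The unnamed inhibitory cluster I3, with 325 nuclei, had 261 ± 69.4 CPM of KCND2, below the mean of each named inhibitory type, and 1137 ± 89.9 CPM of KCNAB1. The unnamed cluster led by FOXP2 and EYA2 averaged 8710.2 ± 1990.3 CPM of KCNIP4 and 1218 ± 133 CPM of KCNAB1 (n = 4).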
